A study of Mus musculus with 54 samples.

Results

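The histone deacetylases Hdac1, Hdac2, Hdac3, Hdac4, Hdac5, Hdac7, Hdac8 and Hdac9 and the corepressor Ncor1 were followed at the RNA level in differentiating mouse myogenic progenitors with and without emerin. They are 9 genes of the 17215 to 17876 listed in each deposited table, and were found by their NCBI gene numbers in all 27 tables. All 9 also passed the filter on low values used here, a mean of at least 10 normalized counts in the higher group, in all 27 tables.

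RNA was sequenced from 6 lines of H2K myogenic progenitors, muscle precursor cells from mice that carry a conditional immortalizing transgene, at days 0, 1 and 2 after the change to differentiation medium (0, 24 and 48 h). The lines were wildtype, EMD-/y, which lacks the X-linked emerin gene, and EMD-/y progenitors transduced by lentivirus with wildtype emerin (+EMD) or with emerin carrying S54F, Δ95–99 or Q133H. The 18 groups have 3 labelled replicates each, 54 samples in all, and according to the methods 3 technical replicates were made of each of 2 biological replicates. The 4 transduced lines were selected with puromycin at doses that differed between lines, highest for S54F and Δ95–99 and lowest for +EMD. By the study's methods, emerin mutant lines were plated for RNA isolation at a higher density than wildtype and EMD-/y, and that passage does not name +EMD. Transgene, selection and, in the mutant lines, plating density cannot be told apart. Each line is a single cell line, and the 5 comparisons of a day share one wildtype group.

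Histone deacetylases remove acetyl groups from histone tails and other proteins and act mostly as parts of corepressor complexes. Class I enzymes (Hdac1, Hdac2, Hdac3 and Hdac8) are mainly nuclear, and Hdac3 needs a corepressor such as Ncor1 for its activity. Class IIa enzymes (Hdac4, Hdac5, Hdac7 and Hdac9) have little catalytic activity of their own, bind MEF2 factors at muscle promoters, and leave the nucleus when calcium-dependent kinases or protein kinase D phosphorylate them. Emerin, a protein of the inner nuclear membrane, binds Hdac3 and the NCoR complex.

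The tables give the authors' mean of normalized counts for each group and 0 columns of values per sample. No spread between replicates and no test could therefore be computed, and every difference below is a description of group means. Levels are given in ppm, parts per 1000000 of the summed means of a group, taken as the median over the tables that hold the group. Differences are given as the log2 ratio of the means of a table after adding 1 normalized count, and a member is called past 2-fold where this ratio was at least 1 in size. Approximate 95% counting intervals treat 3 times a mean as reads and cover counting error only.

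The sum of the means over all genes of a group was 16.7 M to 21.1 M. Emd was at 54.8 to 104.8 ppm in wildtype progenitors and at most at 0.118 in the 5 other lines, the +EMD line included. In the study's Western blots of proliferating cells, the transduced lines expressed emerin protein, but not in equal amounts. Q133H had more than wildtype, and the paper describes the other transduced lines as similar to wildtype. The part of this higher amount in the differences of Q133H from wildtype was not tested. Whether the Emd values include the lentiviral transcript was not tested. All 7 muscle markers were above 0 in every group. Of 9 markers of other cell types, Sox10 was not listed, Ptprc, Adgre1 and Adipoq were at most at 0.105, and the summed level lay between 7.67 and 100.0 ppm, with Tubb3, at 4.72 to 98.0 ppm, the highest of them in 18 of 18 groups. The 706 predicted genes with at least 2 ppm in some group, which the sequencing provider named only by number, set the libraries apart in another way. Their log2 difference from day 0 to day 1 in wildtype correlated with that in EMD-/y at r = 0.84, but with that in +EMD at 0.13, in S54F at -0.10, in Δ95–99 at -0.20 and in Q133H at -0.31. From day 1 to day 2 these values were 0.81, 0.38, 0.51, 0.36 and 0.30, all positive. For 12369 annotated genes the r lay between 0.27 and 0.92 over both steps. From day 0 to day 1 it was likewise highest in EMD-/y, at 0.92. It was 0.77 in +EMD, 0.79 in S54F, 0.64 in Δ95–99 and 0.27 in Q133H. These values are across genes, which are not independent, and the labels name no batch. What sets the predicted genes apart was not tested. The transduced lines are therefore also set beside each other on the same day. There, puromycin dose still differed between lines, and Q133H had the most emerin protein in the blots.

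On a scale of level per kilobase of transcript length, which allows genes to be compared, the class I enzymes Hdac1, Hdac2 and Hdac3 were the most abundant members. In wildtype progenitors at day 0, Hdac2 was at 82.9 ppm per kilobase, Hdac1 at 77.6 and Hdac3 at 59.0. Ncor1 followed at 26.4, ahead of Hdac5 at 13.6, Hdac7 at 13.1 and Hdac4 at 4.39. Hdac8 at 2.97 and Hdac9 at 0.33 were the lowest. By day 2 the order within class IIa was different, with Hdac5 at 19.0, Hdac4 at 3.37, Hdac9 at 2.45 and Hdac7 at 1.72 ppm per kilobase. Whether neighbours such as Hdac5 and Hdac7 at day 0 differ beyond the spread of replicates cannot be read from group means.

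The members differed widely in how far their level moved over the 18 groups. Hdac9 spanned 24.2-fold from its lowest to its highest group and Hdac7 spanned 9.92-fold. Hdac1 spanned 2.75-fold, Hdac8 2.24-fold and Hdac4 2.05-fold. The remaining members spanned less, with 1.95-fold for Hdac5, 1.73-fold for Hdac3, 1.72-fold for Hdac2 and 1.33-fold for Ncor1. The level of 1 group differed between tables by at most 1.16-fold for Hdac9 and 1.03-fold for the other members. This difference between tables is not replicate error, and its source was not tested.

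**Figure D1:**
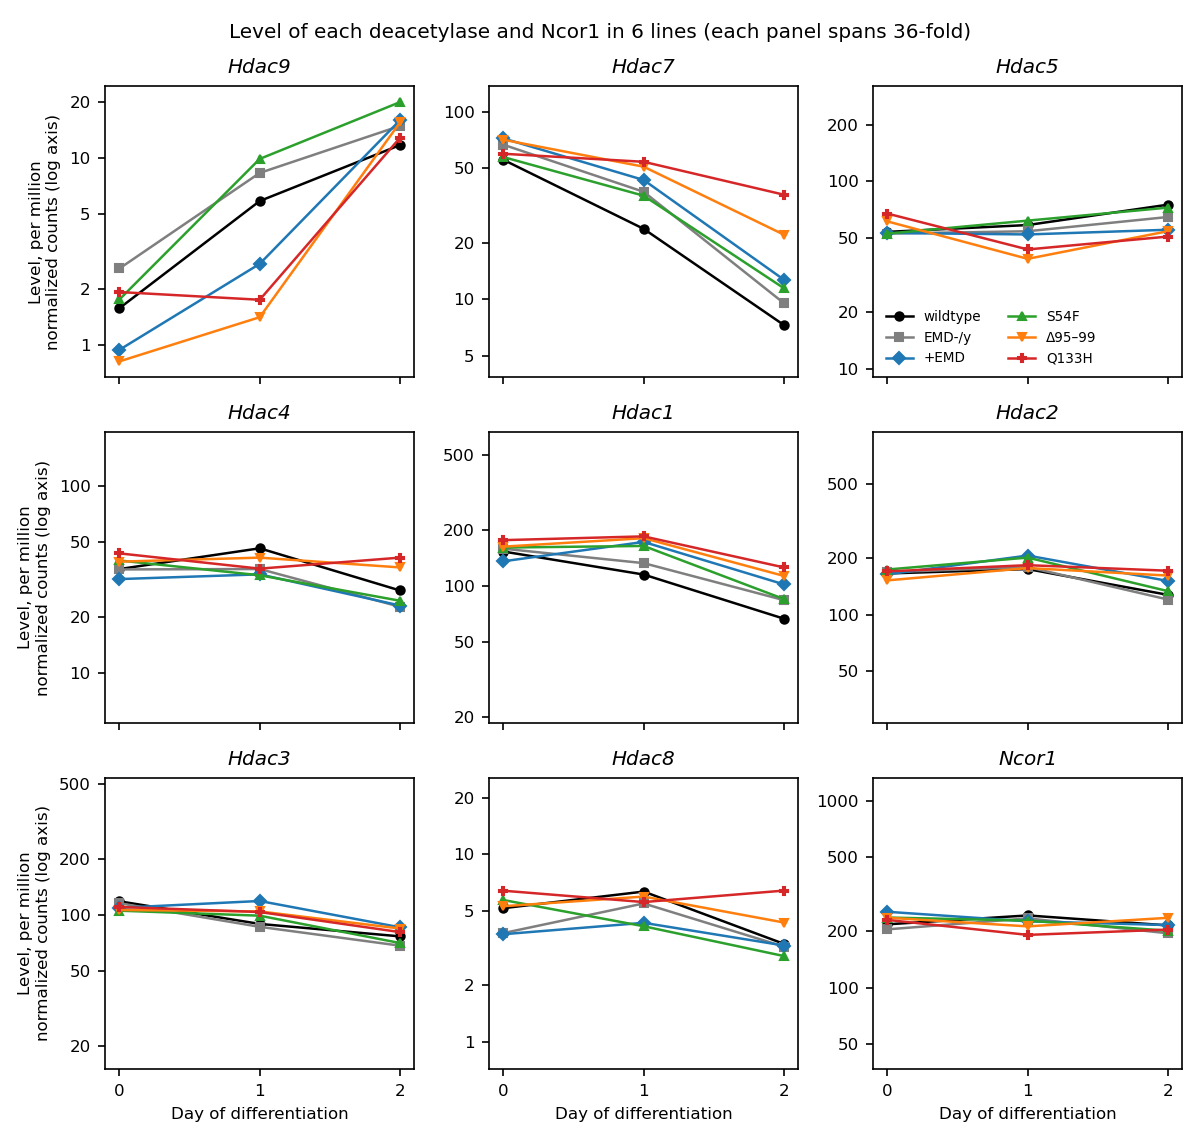
Level of each of the 9 genes (vertical axis, ppm of the summed normalized counts of a group, log axis) on days 0, 1 and 2 of differentiation (horizontal axis) in the 6 lines, each point a group mean with no replicate error. Every panel spans the same fold range, so slopes can be compared: Hdac9 climbs and Hdac7 declines in every line by day 2, most steeply for Hdac9 between days 1 and 2 in Δ95–99, while Ncor1, which spans 1.33-fold, is the flattest.

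Hdac9 is a class IIa deacetylase that binds MEF2, and one of its splice forms, MITR, lacks the deacetylase domain. The gene lies at chr12:34047580-34917095 on mm10 (RefSeq GRCm38.p6), and the tables do not separate its transcripts. RefSeq gives it 2 promoters about which the tables hold no measurement, and both are shown because Hdac9 moved most. Capitals mark every match to the E-box CANNTG, the letters that MyoD and myogenin bind, and to CTANNNNTAG, a MEF2-like core, on either strand, where neighbouring E-boxes may overlap. Each runs 5′ to 3′ on the minus strand and ends 1 base before the start. The 50 bases after each of these 2 starts were not found whole in a GENCODE transcript of Hdac9.
Hdac9, distal start, chr12:34917096-34917345: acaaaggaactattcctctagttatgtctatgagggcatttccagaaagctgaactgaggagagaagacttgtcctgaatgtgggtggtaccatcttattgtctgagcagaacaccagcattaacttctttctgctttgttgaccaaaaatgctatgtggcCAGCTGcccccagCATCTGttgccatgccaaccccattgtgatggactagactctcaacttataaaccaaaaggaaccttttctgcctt
Hdac9, internal start, chr12:34528890-34529139: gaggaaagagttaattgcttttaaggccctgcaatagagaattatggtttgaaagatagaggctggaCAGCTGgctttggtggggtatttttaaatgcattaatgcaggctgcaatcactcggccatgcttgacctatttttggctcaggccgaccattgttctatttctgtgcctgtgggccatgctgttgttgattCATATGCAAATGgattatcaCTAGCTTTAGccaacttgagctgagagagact

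The distal promoter holds 2 E-box matches and 0 matches to the MEF2-like core, and the internal promoter holds 3 E-box matches and 1 match to the core. Of all 32851 promoters of this length, 66.2% hold an E-box match and 3.20% hold the core, so E-box letters are common and the core letters are not. Neither Hdac9 promoter holds the stricter MEF2 consensus, which 2.92% of promoters hold. A match is a description of letters and not a site.

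In wildtype progenitors Hdac9 was at 1.58 ppm at day 0, 5.90 at day 1 and 11.7 at day 2. EMD-/y followed the same course from a higher start, with 2.57, 8.33 and 14.9 ppm. S54F had 1.76, 9.90 and 19.9 ppm, the highest level of all groups at day 2. These 3 lines were already well above their day 0 level at day 1.

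The other lines had lower levels at day 1, though +EMD had also risen past 2-fold from day 0. In +EMD, Hdac9 was at 0.95 ppm at day 0 and 2.73 at day 1 before reaching 15.9 at day 2. In Δ95–99 it was at 0.82, 1.41 and 15.5 ppm, and in Q133H at 1.93, 1.75 and 12.8. At day 1, the level differed 7.0-fold between the lowest and highest of the 4 transduced lines, and at day 2 all 6 lines lay within 1.70-fold.

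From day 0 to day 1, the log2 ratio of Hdac9 was 1.85 in wildtype (interval 1.54 to 2.25), 1.65 in EMD-/y, 1.34 in +EMD and 2.46 in S54F. It was 0.65 in Δ95–99 (interval 0.13 to 1.23) and -0.16 in Q133H (interval -0.57 to 0.24), the only one of 12 day-to-day ratios below 0. From day 1 to day 2 the ratio was 3.52 in Δ95–99, an 11.5-fold higher mean, 2.76 in +EMD and 2.67 in Q133H. The same step was 1.14 in wildtype, 1.03 in EMD-/y and 1.26 in S54F. In total, 10 of the 12 day-to-day ratios of Hdac9 were past 2-fold, all of them higher on the later day. After scaling both means of a table to the same total, 7 of them remained, and the day 1 to day 2 ratios of wildtype (0.95), EMD-/y (0.79) and S54F (0.99) fell short.

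Against wildtype on the same day, Hdac9 was past 2-fold in 3 of 15 comparisons, all at day 1. It was 4.43-fold lower in Δ95–99 (log2 ratio -2.15, interval -2.58 to -1.84), 3.55-fold lower in Q133H (-1.83, interval -2.20 to -1.53) and 2.26-fold lower in +EMD (-1.17, interval -1.48 to -0.90). At the same day, S54F was at 0.69 and EMD-/y at 0.48 on the log2 scale, both above wildtype. At day 2 the 5 ratios lay between -0.11 in Q133H and 0.80 in S54F. That of Q133H turned positive when both means were scaled to the same total.

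Hdac7 took the opposite course. This class IIa enzyme also binds MEF2, and its gene lies at chr15:97792661-97844502. In wildtype progenitors its level was 55.5 ppm at day 0, 23.7 at day 1 and 7.27 at day 2. EMD-/y had 66.8, 37.4 and 9.51 ppm, +EMD had 72.2, 43.3 and 12.7, and S54F had 57.4, 35.7 and 11.4. The decline was shallower in Δ95–99, with 71.0, 51.0 and 22.1 ppm, and shallowest in Q133H, with 59.8, 54.1 and 36.1. At day 0 the 6 lines lay within 1.30-fold of each other, at day 1 within 2.28-fold and at day 2 within 4.97-fold.

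All 12 day-to-day ratios of Hdac7 were below 0, from -1.70 in EMD-/y between days 1 and 2 to -0.14 in Q133H between days 0 and 1, and 6 were past 2-fold. From day 0 to day 1 the log2 ratio was -1.18 in wildtype, -0.80 in EMD-/y, -0.80 in +EMD, -0.65 in S54F, -0.50 in Δ95–99 and -0.14 in Q133H. From day 1 to day 2 it was -1.50 in wildtype, -1.70 in EMD-/y, -1.52 in +EMD, -1.36 in S54F, -1.05 in Δ95–99 and -0.55 in Q133H. The step of Q133H was thus smaller than that of wildtype by 1.04 on the log2 scale in the first interval and by 0.94 in the second. Computed instead from the tables of Q133H against wildtype, these differences were 1.01 and 0.97.

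Hdac7 was above wildtype in all 15 comparisons of a line with wildtype, which share a wildtype group on each day, and under each of the scalings tried. It was past 2-fold in 3 of them. In Q133H it was 2.11-fold higher at day 1 (log2 ratio 1.08, interval 0.99 to 1.17) and 4.13-fold higher at day 2 (2.04, interval 1.90 to 2.20). In Δ95–99 it was 2.65-fold higher at day 2 (1.41, interval 1.25 to 1.57), and the day 1 ratio of 0.97 passed 2-fold only when both means were scaled to the same total (1.10) or taken from other tables (1.10). EMD-/y, with 0.28, 0.66 and 0.42 on days 0, 1 and 2, +EMD, with 0.39, 0.79 and 0.76, and S54F, with 0.02, 0.56 and 0.68, stayed below 2-fold. Among the 4 transduced lines at day 2, the level of Hdac7 differed 3.16-fold.

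RefSeq gives Hdac7 4 promoters, of which 1 holds an E-box match and none holds the MEF2-like core. The outermost is shown for comparison with those of Hdac9, on the minus strand with the same marking.
Hdac7, outermost start, chr15:97844503-97844752: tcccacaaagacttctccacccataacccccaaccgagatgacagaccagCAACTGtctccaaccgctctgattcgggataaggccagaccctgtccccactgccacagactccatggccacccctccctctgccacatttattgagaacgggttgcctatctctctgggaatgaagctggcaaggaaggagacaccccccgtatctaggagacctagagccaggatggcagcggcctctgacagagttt

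Over all members, 16 of 108 day-to-day ratios were past 2-fold, 10 higher and 6 lower, and all 16 were those of Hdac9 and Hdac7. The share of all genes kept that passed 2-fold in either direction from day 0 to day 1 was 22.8% in wildtype, 21.4% in EMD-/y, 17.3% in +EMD, 16.6% in S54F, 14% in Δ95–99 and 12.1% in Q133H. From day 1 to day 2 it was 19.9%, 18.6%, 20.5%, 20.5%, 14.2% and 10.8% in the same order. The members' share of 14.8% lay within the range of these shares of all genes.

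Against wildtype, 6 of 135 ratios were past 2-fold, 3 higher and 3 lower, a share of 4.44%. The share of all genes kept was 8.77% at day 0, 7.42% at day 1 and 7.63% at day 2 in EMD-/y, where 0 of 9 members passed on any day. In +EMD it was 17%, 19.6% and 18.4%, with Hdac9 alone past 2-fold, at day 1. In S54F it was 11.9%, 12% and 10.6%, with 0 members on any day. Δ95–99 had 12.4%, 20.9% and 22% of all genes past 2-fold, and Hdac9 at day 1 and Hdac7 at day 2 among the members. In Q133H the shares were 14.8%, 24.1% and 33.5%, and the members past 2-fold were Hdac7 and Hdac9 at day 1 and Hdac7 at day 2. No member was past 2-fold in any line at day 0.

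**Figure D2:**
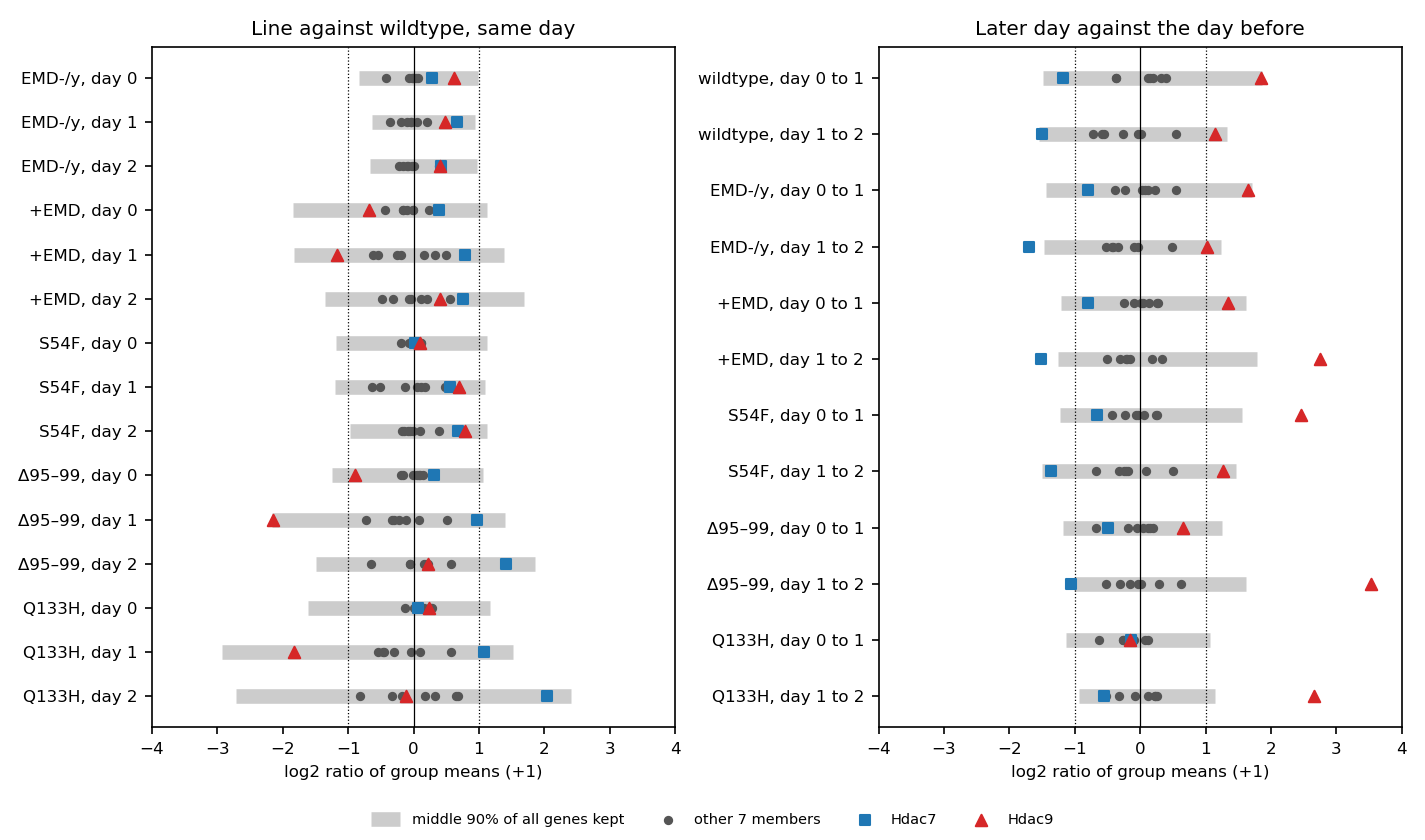
Log2 ratio of group means after adding 1 normalized count (horizontal axis) for each comparison (vertical axis), on the left a line against wildtype on the same day and on the right a day against the day before. Grey bars hold the middle 90% of all genes kept and dotted lines mark 2-fold. Triangles (Hdac9) lie beyond the grey bar to the right between days 1 and 2 in +EMD, Δ95–99 and Q133H and between days 0 and 1 in S54F, squares (Hdac7) lie right of 0 in the whole left panel and left of 0 in the whole right panel, and the other 7 members stay within 2-fold throughout.

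Hdac5, a class IIa enzyme exported from the nucleus as muscle cells differentiate, moved less. Its gene lies at chr11:102195747-102230172. In wildtype progenitors it was at 53.6 ppm at day 0, 58.3 at day 1 and 74.9 at day 2, and S54F had 52.5, 61.6 and 72.3. EMD-/y reached 64.4 and +EMD 55.1 at day 2. Both Δ95–99 and Q133H dipped at day 1, with 61.0, 38.5 and 54.1 ppm in Δ95–99 and 67.2, 43.2 and 50.6 in Q133H. Their log2 ratios against wildtype were -0.73 and -0.54 at day 1 and -0.65 and -0.82 at day 2, after 0.15 and 0.29 at day 0. None passed 2-fold. The Hdac5 promoter, also on the minus strand, is shown because it alone among the members' promoters examined holds the stricter MEF2 consensus.
Hdac5, chr11:102230173-102230422: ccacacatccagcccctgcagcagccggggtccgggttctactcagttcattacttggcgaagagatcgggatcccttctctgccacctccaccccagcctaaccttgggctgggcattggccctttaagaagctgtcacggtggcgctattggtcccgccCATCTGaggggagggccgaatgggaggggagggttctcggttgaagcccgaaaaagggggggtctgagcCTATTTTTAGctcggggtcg

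It holds 1 E-box match and 1 match to the MEF2-like core, which is also the match to the consensus. The 50 bases after its start were likewise not found whole in a GENCODE transcript of Hdac5. In all, RefSeq promoters were examined for 7 of the 9 members, with 12 entries, and those of Hdac1 and Hdac3 were not among them. Of the 12 entries, 6 hold an E-box match and 3 hold the core, those of Hdac5, Hdac2 and the internal start of Hdac9.

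Hdac4, the class IIa enzyme linked to the response of muscle to denervation, lies at chr1:91928779-92195702. Its level ranged from 22.6 to 46.3 ppm, and no ratio passed 2-fold. In wildtype it was at 35.9, 46.3 and 27.6 ppm on days 0, 1 and 2. From day 0 to day 1 its log2 ratio was 0.40 in wildtype and between -0.27 and 0.05 in the other lines, and all 5 log2 ratios against wildtype at day 1 were below 0, from -0.54 in +EMD to -0.30 in Δ95–99. At day 2 the ratio was 0.22 in Δ95–99 and 0.32 in Q133H, and below 0 in the other lines.

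The make-up of class IIa therefore differed between days. Summed per kilobase, the 4 enzymes were at 31.4 ppm per kilobase at day 0, 27.3 at day 1 and 26.5 at day 2 in wildtype progenitors. Hdac5 made up 43.3%, 54.2% and 71.6% of this sum, Hdac7 41.7%, 20.5% and 6.47%, and Hdac9 1.05%, 4.51% and 9.21%. In Q133H, Hdac7 still made up 44.8% at day 1 and 29.3% at day 2, and Hdac5 38.4% and 44.1%. Δ95–99 lay between them at day 2, with 19.6% for Hdac7 and 51.5% for Hdac5. The sum itself ranged from 23.1 to 37.2 over the 18 groups, and in all 6 lines it was highest at day 0.

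**Figure D3:**
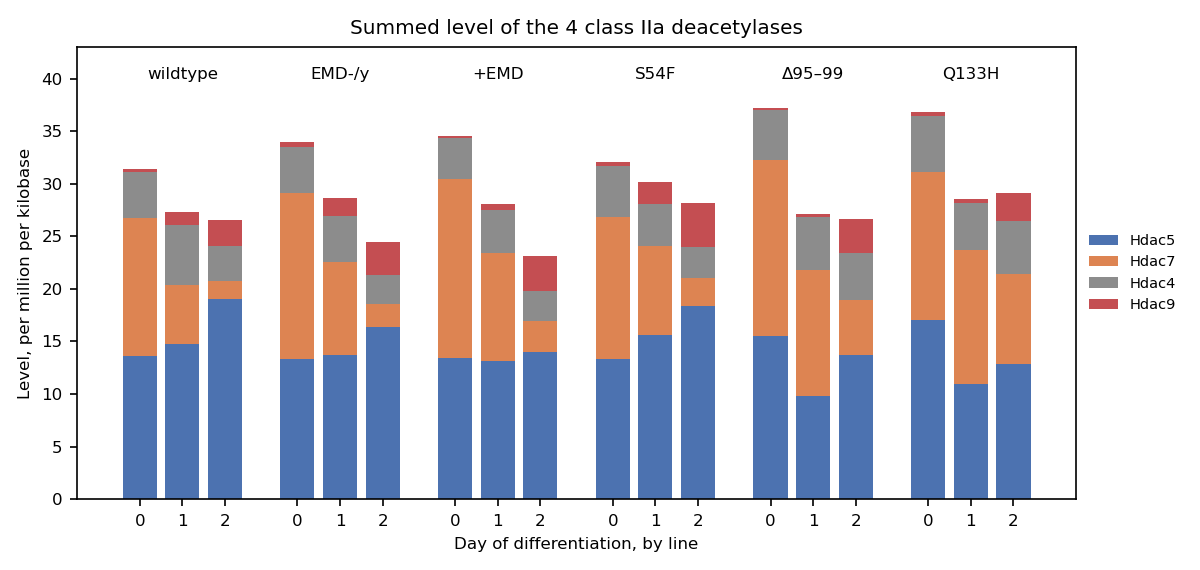
Stacked level of the class IIa deacetylases Hdac5, Hdac7, Hdac4 and Hdac9 (vertical axis, ppm per kilobase, starting at 0) on days 0, 1 and 2 of each line (horizontal axis), from group means without replicate error. The Hdac7 segment shrinks to 6.47% of the bar in wildtype at day 2 but holds 29.3% in Q133H.

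Among class I enzymes, Hdac1 moved most. Hdac1 and Hdac2 are the catalytic pair of the Sin3, NuRD and CoREST complexes. Hdac1 (chr4:129516104-129542646) was at 152.9 ppm at day 0 in wildtype progenitors, 115.2 at day 1 and 66.9 at day 2. The level in the other lines was 135.6 to 175.9 at day 0, 132.6 to 184.2 at day 1 and 84.1 to 125.8 at day 2. Wildtype was thus the lowest line on days 1 and 2 and lay within the range of the others at day 0.

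Against wildtype, Hdac1 was higher in 14 of 15 comparisons, the exception being +EMD at day 0 with a log2 ratio of -0.16. At day 2 the ratio was 0.39 in EMD-/y, 0.57 in +EMD, 0.39 in S54F, 0.57 in Δ95–99 and 0.65 in Q133H (interval 0.59 to 0.71). On the authors' scaling, only Q133H at day 2 passed 1.5-fold. With both means scaled to the same total, the highest of the 15 ratios was 0.90. From day 0 to day 1 the ratio was -0.37 in wildtype and -0.23 in EMD-/y, but between 0.06 and 0.27 in the transduced lines. From day 1 to day 2 it was below 0 in all 6 lines, from -0.67 in S54F to -0.42 in EMD-/y.

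Hdac2 (chr10:36974297-37001889) ranged from 120.6 to 207.1 ppm. In wildtype it was at 166.1, 175.4 and 127.7 ppm on days 0, 1 and 2. Its log2 ratios lay between -0.16 and 0.20 against wildtype and between -0.34 and 0.26 from day to day. These ratios are of the size by which scaling to equal totals moves a ratio, up to 0.27, so no direction is given for them.

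Hdac3, the enzyme of the NCoR complex that emerin binds, was at 118.3 ppm at day 0, 89.6 at day 1 and 76.9 at day 2 in wildtype progenitors. EMD-/y had 115.6, 86.5 and 68.6 ppm. In the transduced lines it was at 105.5 to 110.4 at day 0, 99.2 to 118.8 at day 1 and 70.9 to 86.0 at day 2. From day 0 to day 1 the log2 ratio was -0.36 in wildtype and -0.39 in EMD-/y, and in the transduced lines it lay between -0.09 and 0.05. From day 1 to day 2 the ratio on the authors' scaling was -0.03 in wildtype and -0.10 in EMD-/y. Against wildtype, the 15 log2 ratios were between -0.20 and 0.32, the highest that of +EMD at day 1, and none passed 1.5-fold.

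Hdac8, an X-linked class I enzyme (chrX:102284638-102505381) that deacetylates cohesin, was the least abundant of its class, at 2.87 to 6.41 ppm. In wildtype it was at 5.17, 6.34 and 3.33 ppm on days 0, 1 and 2. At these levels the counting interval of a ratio is wide, and 0.68 for Q133H against wildtype at day 2 had an interval of 0.43 to 0.95. At day 1, all 5 log2 ratios against wildtype were below 0, from -0.63 in S54F (interval -0.88 to -0.40) to -0.19 in EMD-/y (interval -0.42 to 0.04). No ratio of Hdac8 passed 2-fold.

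Ncor1, the scaffold that recruits Hdac3 to nuclear receptors and other factors, lies at chr11:62315663-62457414. It was the steadiest member. Its level was 218.2, 243.4 and 215.4 ppm in wildtype on days 0, 1 and 2, and 205.1, 234.8 and 195.5 in EMD-/y. In the transduced lines it was at 230.4 to 254.6 at day 0, 191.7 to 228.4 at day 1 and 201.7 to 236.4 at day 2. The lowest level of all groups, 191.7, was that of Q133H at day 1, with a log2 ratio of -0.45 against wildtype. The other 14 ratios against wildtype lay within 0.33 of 0. From day 1 to day 2 the log2 ratio of Ncor1 on the authors' scaling was 0.01 in wildtype and -0.03 in EMD-/y. Of the 12 day-to-day ratios, 7 were above 0 on that scaling and 4 with equal totals, so no direction is given for them.

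Genes whose level followed a member most closely over the 18 groups were sought among 10430 named genes with at least 1 ppm in every group. For Hdac3 they were Psmc3ip (Pearson's r of log2 levels 0.98), Nup85 (0.97) and Srsf7 (0.97). For Hdac9 they were Pgam2, the muscle phosphoglycerate mutase, Shisa2 and Fras1, with r of 0.97, 0.97 and 0.96. For Ncor1, whose level moved little, they were Huwe1 (0.87), Ppp6r3 (0.82) and Herc1 (0.82). The 18 groups share lines and days, a part of base composition was not tested, and the values are a description.

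The remaining genes of the pathway were taken as 90 genes on 7 lists. In wildtype from day 0 to day 1, 11 of the 88 kept were past 2-fold higher and 0 lower, 12.5% against 22.8% of all genes. In Q133H at day 2, 7 were higher and 10 lower than wildtype, 19.1% against 33.5% of all genes. EMD-/y had 1.14%, 2.25% and 3.41% of the kept list genes past 2-fold from wildtype on days 0, 1 and 2, against 8.77%, 7.42% and 7.63% of all genes.

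Of the 10 other deacetylases, Hdac11, the class IV enzyme, was past 2-fold higher in 8 of 12 day-to-day comparisons. Its level in wildtype was 6.16, 59.0 and 89.2 ppm on days 0, 1 and 2, and in Q133H 7.67, 8.32 and 45.1. Hdac11 was past 2-fold below wildtype in 4 of 15 comparisons. Sirt2 was past 2-fold in 1 of 15, lower in Q133H at day 2, and Sirt1 in none. The median log2 ratio of the list lay between -0.11 and 0.15 from day to day and between -0.23 and 0.07 against wildtype, where the median of all genes kept was within 0.02 of 0.

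Among the 5 other genes of the NCoR complex followed here, none passed 2-fold in any of the 27 comparisons. Tbl1x, a subunit that exchanges corepressors for coactivators, had day-to-day log2 ratios from -0.80 to -0.19, and its relative Tbl1xr1 had ratios from -0.39 to 0.51. The list's median lay between -0.17 and 0.18 from day to day and between -0.31 and 0.28 against wildtype. The partners of class I enzymes gave few genes past 2-fold. Sap30 of the Sin3 complex, a list of 12 genes with medians from -0.33 to 0.06 between days, was past it in 4 of 12 day-to-day comparisons, all higher. Chd3 is a helicase of NuRD, a list of 11 genes with medians from -0.21 to -0.02 between days. It was past 2-fold in 3 of 12 day-to-day comparisons, all higher. Chd3 was below wildtype past 2-fold in 3 of 15, with 324.7 ppm in wildtype, 147.0 in Δ95–99 and 96.2 in Q133H at day 1. Its median log2 ratio against wildtype was 0.27, and at day 2 it was at 442.1 ppm in +EMD against 248.6 in wildtype.

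The 11 genes of CoREST and MiDAC had 0 past 2-fold between days and, at day 2 in Q133H, Mier1 higher and Rcor2 lower than wildtype. Of the 13 histone acetyltransferases, Kat2b, the MyoD coactivator PCAF, had log2 ratios from -1.85 to -0.03 against wildtype and was past 2-fold lower in 2 of 15 comparisons. Ncoa1 was past 2-fold in 4 of 12 day-to-day comparisons, 3 higher and 1 lower. Over this list, 4 values were past 2-fold higher and 4 lower of 156 between days, and 3 higher and 5 lower of 195 against wildtype. The list of 28 class IIa partners and kinases, the longest of the 7, held most of the values past 2-fold, with 45 higher and 19 lower of 316 between days and 23 higher and 44 lower of 398 against wildtype. These are 20.3% and 16.8%, within the ranges over comparisons of the share of all genes past 2-fold, 10.8% to 22.8% between days and 7.42% to 33.5% against wildtype. Its median stayed between -0.25 and 0.19 in every comparison. Mef2c, the MEF2 factor that class IIa enzymes repress, was at 77.8, 216.6 and 589.9 ppm in wildtype on days 0, 1 and 2. EMD-/y had 165.7, 343.8 and 668.3 ppm and S54F had 122.0, 164.7 and 680.3. It was at 8.37, 9.98 and 158.3 in +EMD, 18.4, 5.36 and 133.6 in Δ95–99 and 100.6, 25.2 and 188.8 in Q133H. Against wildtype Mef2c was past 2-fold lower in 8 of 15 comparisons, those of +EMD and Δ95–99 on all 3 days and of Q133H on days 1 and 2.

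Some kinases that phosphorylate class IIa enzymes also differed. Those named here had the largest median sizes of ratio on the list. Most of its other kinases had 0 ratios past 2-fold against wildtype. Camk2a was past 2-fold higher on the later day in 11 of 12 comparisons, with a median log2 ratio of 2.40, and past 2-fold below wildtype in 8 of 15. Camk2b was past 2-fold below wildtype in 9 of 15. Prkd1, protein kinase D, was past 2-fold below wildtype in 9 of 15 and above it in 2, with 6.38 ppm in wildtype, 0.21 in +EMD and 16.7 in Q133H at day 1. Camk4 was past 2-fold above wildtype in 12 of 15 comparisons and below it in 0, with a median log2 ratio of 1.33. From day to day it was past 2-fold higher in 5 of 12 and lower in 3. Its level was low, at 0.99, 2.95 and 0.69 ppm in wildtype on days 0, 1 and 2. In +EMD it was below wildtype at days 0 and 1, at 0.53 and 2.72 ppm.

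Levels of markers of differentiation and of cycling are set beside those of Hdac9, Hdac7 and Hdac1. Ckm, muscle creatine kinase, was at 9.43, 101.8 and 449.8 ppm in wildtype, at 2.74, 3.99 and 163.5 in Δ95–99 and at 1.76, 0.93 and 50.8 in Q133H. The 7 muscle markers summed to 9112 ppm in wildtype at day 1, 9040 in EMD-/y, 6741 in S54F, 5094 in +EMD, 2301 in Δ95–99 and 1283 in Q133H. The 3 lines with the lowest Hdac9 at day 1, +EMD, Δ95–99 and Q133H, also had the lowest sums. Myf5, one of the 7 markers, went the other way at day 1. It was at 12.3 ppm in wildtype, 22.8 in EMD-/y, 24.1 in S54F, 55.6 in +EMD, 85.1 in Δ95–99 and 44.6 in Q133H. Myh3 was the largest part of the wildtype sum at day 1, at 3691 ppm against 707 in +EMD. Myod1 at day 1 was at 931 ppm in wildtype, 736 in EMD-/y, 975 in S54F, 1002 in +EMD, 612 in Δ95–99 and 345 in Q133H. The cycling markers Mki67 and Top2a summed at day 2 to 16.8 ppm in wildtype, 50.6 in EMD-/y, 49.0 in S54F, 170.2 in Q133H, 313.9 in +EMD and 321.6 in Δ95–99.

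Over the 18 groups, the log2 level of Hdac9 correlated with that of Ckm at r = 0.91, that of Hdac7 with that of Myog at r = -0.80 and with that of Mki67 at r = 0.90, and that of Hdac1 with that of Mki67 at r = 0.91. Over the 6 lines of days 0, 1 and 2 taken alone, r was 0.51, 0.91 and 0.30 for Hdac9 and Ckm. For Hdac7 and Myog it was 0.32, -0.75 and -0.80, and for Hdac1 and Mki67 it was -0.55, 0.83 and 0.87, so that both pairs had the opposite sign at day 0. The level of Ncor1 correlated with that of Mki67 at r = 0.47 over the 18 groups and at 0.81, -0.50 and 0.44 within days 0, 1 and 2. The groups share lines and days, and fewer cells of a kind and less RNA per cell cannot be told apart in bulk samples. The part of differentiation state and of cycling in the members' levels was not tested.

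**Figure D4:**
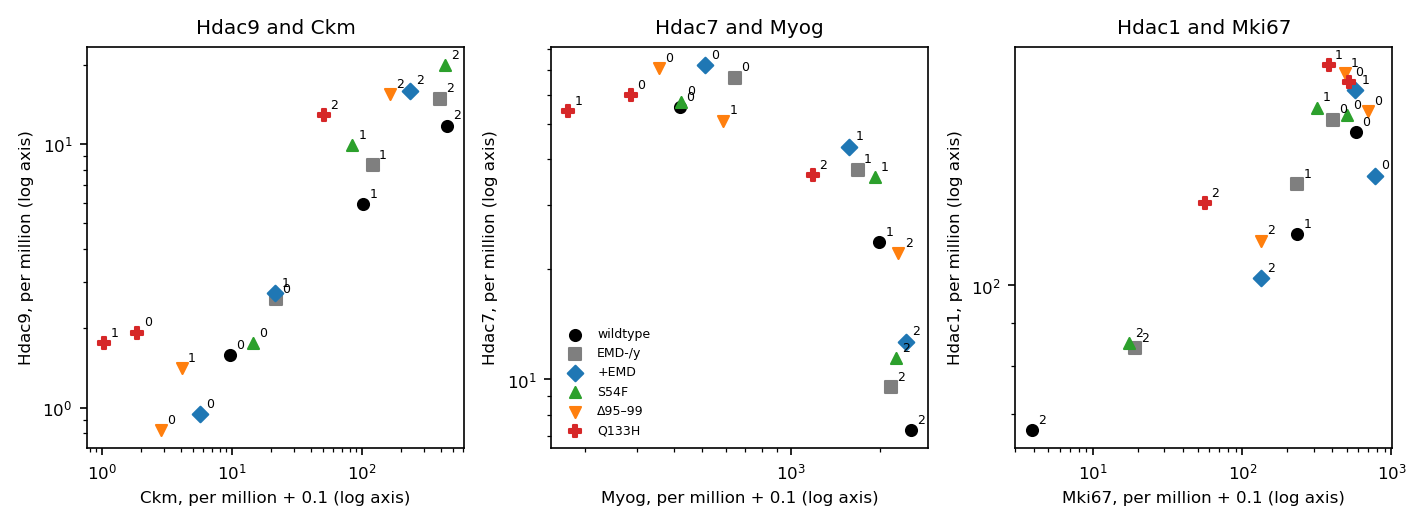
Level of a member (vertical axis, ppm, log axis) against that of a marker (horizontal axis, ppm plus 0.1, log axis) in the 18 groups, with the day beside each point and the line as its colour and shape. Hdac9 is plotted against Ckm, Hdac7 against Myog and Hdac1 against Mki67, and in the last panel wildtype at day 2 is the lowest group on both axes, with Hdac1 at 66.9 and Mki67 at 3.79 ppm.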

How the data were processed

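RNA-seq of 54 samples (18 groups of 3) was analysed. The libraries were of poly-A RNA per the labels. Per the study's methods, they were sequenced by the authors' provider, reads were filtered with SOAPnuke and aligned to mm10 with HISAT2, and DESeq2 was run on pairs of groups. Tool versions are not given in the sources used here. The signal values as deposited by the authors are means per group of normalized counts, scaled within each of 27 tables. The tables also hold the authors' fold changes, p-values, adjusted p-values and calls, which were not used, and 0 columns of values per sample, so neither the spread nor the depth of a replicate is known. Gene symbols came from RefSeq (GRCm38.p6) by gene number, and promoters from the same build.

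Log2 ratios were taken within a table after adding 1 to both means, for genes with a higher mean of at least 10, and 2-fold was the threshold. Levels are parts per 1000000 (ppm) of a column's sum. Ratios keep the authors' scaling and levels do not, and the summed means of a table differed by up to 0.27 on the log2 scale. Scaling to equal totals moves the median of all genes by as much; otherwise it was within 0.02 of 0. Lengths are the provider's. Counting intervals are exact Clopper-Pearson. All 9 members were named; from each list of other genes, at most the 3 with the largest median size of ratio over the 15 or the 12 tables were, if kept in every one, and the 3 genes most like Hdac3, Ncor1 and the member of widest range. The members and lists were chosen with earlier results of these data known. The ratio and threshold were tested on simulated data. Computations used pandas 2.3.3, scipy 1.17.1, numpy 2.4.6, matplotlib 3.10.9 and Python 3.11.15. One gene of the lists is not reported here. Vector-only and M179 progenitors were not analysed here.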

Additional observations from a re-analysis of the deposited data

How the results depend on the processing

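The count of members past 2-fold against wildtype was 6 of 135 and lay between 6 and 7 with no pseudocount, a pseudocount of 10, no filter on low values, equal totals, centring on the median, and means taken from the other tables. Between days it was 16 of 108 and lay between 13 and 16 under the same alternatives. A threshold of 1.5-fold gave 23 against wildtype and 26 between days. No ratio past 2-fold changed its sign. The calls lost were day 1 to day 2 ratios of Hdac9, in EMD-/y with a pseudocount of 10 (0.98), in wildtype, EMD-/y and S54F with equal totals, and in wildtype and EMD-/y with means from other tables (0.99 and 0.84), and the call gained was Hdac7 in Δ95–99 against wildtype at day 1. With equal totals, 14 of 243 ratios changed sign, the largest of them 0.18 in size. Leaving out a replicate could not be run, since the tables hold group means only. No paired analysis was possible because the columns carry no replicate numbers and no test was run. Depth limits Hdac8 and Hdac9 most.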
